A study of Mus musculus with 1152 samples.

Results

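Of the 242 wells of 18-month-old bone marrow that passed the detection limit, 78 held Hes1, Btg2 and Nr4a1 messages each at a normalised read count (CPM) of 50 or more and are called the positive wells here. Each well was seeded with a single long-term hematopoietic stem cell (LT-HSC). The positive wells were compared with the wells that held none of the 3 genes at 50 CPM (the negative wells). Of 32 immediate-early genes that could be tested, limma on well means called 26 higher in positive wells and edgeR on pool sums called 7. Over all genes tested they called 1.12% and 0.196% higher. Nr4a1 is itself an immediate-early gene, so these calls are not independent of how the wells were chosen. Of Nr4a2, Fos, Fosb, Jun, Junb, Egr1, Zfp36, Dusp1, Ier2 and Klf4, the positive wells held a median of 10 at 1 count or more and the negative wells a median of 6. At least 9 of these 10 genes were detected in 70 of 78 positive wells and in 11 negative wells, and all 10 in 48 positive wells and 1 negative well. Nr4a3 was left out of the 10, and was detected in only 3 or 4 positive wells of each pool and in no negative well. The positive wells made up 35.3% and 28.4% of the passing wells in the WT pools and 42.9% and 28.2% in the JAK2V617F pools. No member of the HSC gene list, the Notch pathway list or the cell-cycle progression list was called over the 4 pools, among 36, 16 and 14 tested. Over all 8661 genes tested limma called 1.12% higher and 0.0693% lower, so lists of this size may give no call at that share.

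The members were picked by measured values. A well of an 18-month sample entered with 2500 or more genes detected, and was positive when the CPM of Hes1, Btg2 and Nr4a1, taken over gene counts without spike-ins, each reached 50. A negative well had none of the 3 genes at 50 CPM. Negative wells were 49.2% of the passing wells, and 45 wells held 1 or 2 of the genes. The whole series held 1152 wells, of which 384 came from 18-month animals.

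The wells came from homozygous JAK2 V617F mice and from wild-type (WT) mice at 4, 12 and 18 months of age, with 2 library pools of 96 wells for each genotype and age. JAK2V617F is the constitutively active kinase allele found in most myeloproliferative neoplasms, here carried on both copies, and the sources used here do not give the promoter or Cre that controls it. Cells were sorted from whole bone marrow with the ESLAM antigens (CD45, EPCR, CD48 and CD150) into lysis buffer, and their cDNA was made by Smart-seq2, which amplifies full-length polyadenylated RNA. The pools of a group are called A and B. The design names 2 animals per group without tying a pool to an animal. Pool was a block in the main tests, so their p-values measure how the difference between positive and negative wells varied over pools. That variation may be technical.

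Immediate-early genes are switched on within minutes of a growth factor, cytokine or stress signal, without new protein synthesis, and most of their messages are short-lived. They encode transcription factors of the AP-1, EGR, KLF and NR4A families together with the proteins that end the response, such as the MAP kinase phosphatase Dusp1 and the mRNA decay factor Zfp36. Nr4a1 is an orphan nuclear receptor of this class, Btg2 is an antiproliferative protein that recruits the CCR4-NOT deadenylase and is also a p53 target, and Hes1 is a bHLH repressor best known as a Notch target.

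The upstream sequences of Btg2 and Nr4a1, 2 of the 3 genes that set the state, are shown. Hes1 was not matched in the RefSeq promoter table. Both sequences are the 250 bases before an annotated start in the RefSeq table of build GRCm38.p6. Which start the wells used was not measured for any gene shown. The Btg2 stretch is chr1:134079156-134079405, minus strand. Capitals mark its match to TGACGTCA, the full cyclic AMP response element (CRE), from -166 to -159 relative to the start.
Btg2 upstream: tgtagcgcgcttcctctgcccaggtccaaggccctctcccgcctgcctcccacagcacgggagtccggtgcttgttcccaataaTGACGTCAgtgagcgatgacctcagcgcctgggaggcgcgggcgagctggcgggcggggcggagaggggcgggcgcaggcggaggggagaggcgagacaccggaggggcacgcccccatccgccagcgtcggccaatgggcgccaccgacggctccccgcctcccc
The Nr4a1 stretch is chr15:101266596-101266845, plus strand, and lies inside the annotated span of the gene, 101254269 to 101274795. The stretch held no match to TGACGTCA, and capitals mark 4 matches to TGCGTCA, a motif chosen after reading this sequence.
Nr4a1 upstream: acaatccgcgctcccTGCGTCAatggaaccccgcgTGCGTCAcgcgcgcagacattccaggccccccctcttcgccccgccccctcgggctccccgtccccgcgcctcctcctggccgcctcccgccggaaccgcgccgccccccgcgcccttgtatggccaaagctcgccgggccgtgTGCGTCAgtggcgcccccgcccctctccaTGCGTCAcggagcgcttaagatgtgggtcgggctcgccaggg
Of the 32851 promoters in the table, 1.75% held TGCGTCA on either strand and 1 held 4 or more matches, which was Nr4a1 itself. A match is a run of letters and not a measured binding site.

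The full CRE was also found upstream of 8 of the genes that were higher in positive wells in the limma comparison described below. Promoters were matched for 72 of those 97 genes, so 11.1% held it, against 214 of 6675 tested genes with a promoter (3.21%) and 1.77% of the 27025 genes in the table. Counted per promoter, the shares were 7.92% and 2.69% among called and tested genes, and 1.55% in the whole table. The 8 genes were Dusp1, Ccnl1, Maff, Ppp1r15a, Nfkbid, Tinf2, Arl5b and Rap1b. The stretches of 4 of them are shown, from the cell's response brakes (Dusp1, Ppp1r15a), an AP-1 partner (Maff) and a cyclin tied to RNA splicing (Ccnl1), with the CRE in capitals.
Dusp1 (chr17:26508587-26508636, minus strand): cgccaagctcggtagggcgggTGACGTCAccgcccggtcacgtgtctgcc
Ppp1r15a (chr7:45526269-45526301, minus strand): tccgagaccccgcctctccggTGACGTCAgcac
Maff (chr15:79347470-79347519, plus strand): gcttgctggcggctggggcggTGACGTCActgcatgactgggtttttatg
Ccnl1 (chr3:65958250-65958288, minus strand): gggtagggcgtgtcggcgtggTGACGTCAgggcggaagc
The serum response factor site, the CArG box, was found upstream of Zfp36 and Dusp5, which is 2.78% of the 72 genes against 1.35% of tested genes and 1.62% of all genes. Capitals mark it below, and those of Dusp5 cover adjoining matches from -82 to -73 and from -72 to -63.
Zfp36 (chr7:28379257-28379306, minus strand): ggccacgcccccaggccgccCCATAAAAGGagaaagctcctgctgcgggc
Dusp5 (chr19:53529043-53529092, plus strand): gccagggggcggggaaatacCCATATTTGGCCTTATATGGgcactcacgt
For the other motifs the shares among the 72 genes and among tested genes were 8.33% and 5.03% for AP-1 (TGANTCA), 12.5% and 6.996% for STAT (TTCNNNGAA), 23.6% and 23.01% for RBPJ (TGGGAA), 40.3% and 38.97% for the N-box (CACNAG), and 0% and 1.09% for the NR4A element NBRE (AAAGGTCA). In all genes of the table they were 7.82%, 8.13%, 24.1%, 40.1% and 1.55%. All motifs were searched on both strands, and matches of different motifs may overlap.

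The 3 genes that define the state are given as a description, since they chose the wells. Hes1 lies at chromosome 16 from 30064384 to 30067796, Btg2 at chromosome 1 from 134075170 to 134079120 and Nr4a1 at chromosome 15 from 101254269 to 101274795 (GRCm38). Over the 78 positive wells Hes1 ranged from 60.4 to 5473 CPM with a median of 1193 CPM, Btg2 from 51.2 to 12806 with a median of 2173, and Nr4a1 from 58.2 to 5496 with a median of 1343. The levels were far above the limit in most wells: the lowest of a well's 3 values had a median of 588 CPM, and it lay under 100 CPM in 8 of 78 wells. In the negative wells the medians were 0, 0 and 2.10 CPM, and 34 of them held no count of any of the 3. The 3 positive wells nearest the limit had a lowest value of 51.2, 58.2 and 60.4 CPM, and the 3 wells just outside it, with 2 genes past the limit, had 34.7, 34.6 and 32.1 CPM for the third gene.

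Wells that held some of the 3 genes were fewer than wells that held them all. At 18 months 14 wells had 2 of the genes, which were Btg2 with Nr4a1 in 9, Hes1 with Nr4a1 in 3 and Hes1 with Btg2 in 2. A further 31 wells had 1 gene, Nr4a1 in 13, Btg2 in 11 and Hes1 in 7. Of 90 wells with Hes1 at 50 CPM, 78 held all 3. The other 2 genes were close to this: Hes1, Btg2 and Nr4a1 reached 50 CPM in 37.2%, 41.3% and 42.6% of passing wells. All 3 did so in 32.2%. These shares were not tested against each other.

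The share of positive wells was 12 of 34 (35.3%, exact 95% binomial interval 19.7 to 53.5) in WT pool A, 23 of 81 (28.4%, 18.9 to 39.5) in WT pool B, 21 of 49 (42.9%, 28.8 to 57.8) in JAK2V617F pool A and 22 of 78 (28.2%, 18.6 to 39.5) in JAK2V617F pool B. The intervals cover counting error only, and all 4 overlap. The share in pool A lay above that in pool B in both genotypes, but with 1300 genes as the detection limit it was 23.1% in WT pool A and 26.1% in WT pool B, and 38.04% and 27.4% in JAK2V617F pools A and B. Pools A and B differed in spike-in load, with a median of 0.744% to 0.956% ERCC counts in A and 7.61% to 7.74% in B. At 4 months 2 wells were positive (1.21% of the passing wells, 0.147 to 4.31), both from WT pool B. Few wells passed in the 4-month A pools: 4 in JAK2V617F (0% positive, interval up to 60.2%) and 21 in WT (0%, up to 16.1%). At 12 months no well was positive, 0 of 281, which allows a share of up to 1.07% by the limit of 3 counts, and of up to 1.30% by the exact binomial interval. The 12-month pools carried their own pool numbers and 45.6% to 58.7% ERCC counts, so age and library preparation cannot be told apart for them.

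**Figure D1:**
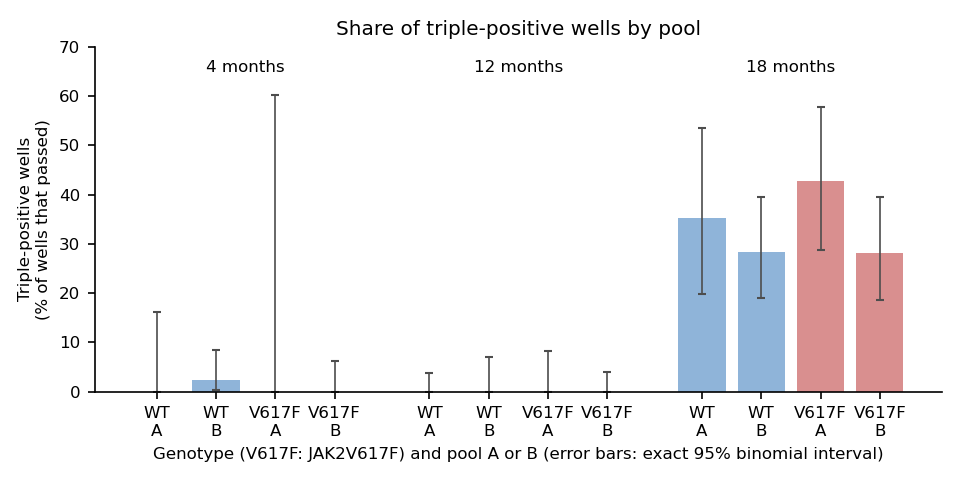
Bars give the percentage of passing wells that held Hes1, Btg2 and Nr4a1 each at 50 CPM or more, for each of the 12 pools, with exact 95% binomial intervals. The 4 pools at 18 months lie between 28.2% and 42.9%, and the 8 pools at 4 and 12 months between 0% and 2.44%. The genes were chosen from 18-month cells, so the ages are shown as a description. The 4-month pools A held only 4 (JAK2V617F) and 21 (WT) passing wells, with intervals up to 60.2% and 16.1%.

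Positive and negative wells overlapped in depth. Gene counts per well ranged from 31497 to 1041966 in positive wells (median 353168) and from 76286 to 6618753 in negative wells (median 345238), and pool medians were higher in the positive wells in 1 of 4 pools for gene counts (exact sign-flip test over pools, two-sided, p = 0.25) and in 2 of 4 for genes detected (p = 0.75). With 4 pools this test cannot go below an exact p of 0.12. Reads that fell in no annotated gene took a larger share in positive wells in 4 of 4 pools, by 5.94, 0.685, 5.98 and 3.18 percentage points (medians, WT A, WT B, JAK2V617F A and B, exact sign-flip test p = 0.12), and the ERCC share was lower in 4 of 4 pools, with differences of -0.0910 to -0.401 points (exact p = 0.12). Their part in the gene results was not tested. The deepest negative well supplied 34.2% of the counts of its pool's negative sum, in JAK2V617F pool B. Positive wells were found at all 12 first-index and all 8 second-index positions, at 16.7% to 50% and 25% to 45.5% of the passing wells, and 21 of the 53 index pairs that held a positive well held one in 2 or more pools. Every pool used the same 96 index pairs.

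Both kinds of well carried the genes of the HSC label. The 37 HSC genes summed to 6176 to 21165 CPM in positive wells (median 12830) and 5906 to 21928 CPM in negative wells (median 12252). Kit, the stem cell factor receptor, was detected in 92.3% and 94.1% of wells, Hlf in 91.03% and 94.96%, and Procr, which encodes the sort antigen EPCR, in 50% and 47.9%. Cd48, whose product the sort excludes, was at 0 in 77 of 78 positive wells and in every negative well. Of the markers of other cells, those at 0 in every positive well were 3 of 13 granulocyte and monocyte, 5 of 12 erythroid, 3 of 10 megakaryocyte and platelet, 9 of 16 lymphoid, 6 of 7 mast cell and 5 of 10 stromal markers, and in the negative wells they were 6, 4, 1, 11, 7 and 5. Ctsg, Csf1r, Fcgr3, Ermap, Cd79a, Dntt and the mast cell gene Cpa3 (up to 286 CPM) were seen in positive wells and in no negative well. The reverse held for the erythroid genes Klf1 and Epor and the megakaryocyte and platelet genes Gp1bb and Treml1. The part of these markers in the gene results was not tested. Summed per well, the 13 granulocyte and monocyte markers had medians of 1188 and 1218 CPM in positive and negative wells, the 12 erythroid markers 718 and 1207, the 10 megakaryocyte and platelet markers 6.78 and 0, and the 16 lymphoid markers 24.5 and 21.3. Of these lists 4, 5, 3 and 3 members could be tested and 0 were called by edgeR or limma. The mast cell and stromal lists had medians of 0 in both kinds of well.

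To ask what else distinguished the positive wells, all genes were compared within each pool with Hes1, Btg2 and Nr4a1 left out. Counts summed over the wells of each pool and state gave 17 higher and 0 lower genes among 8661 tested (0.196% and 0% of genes tested, edgeR's quasi-likelihood test with the pool as block, Benjamini-Hochberg adjusted p under 0.05). Genes with an unadjusted p under 0.05 were 2.56% of those tested higher and 1.97% lower. Comparing the mean log2(CPM + 1) over wells of each pool and state gave 97 higher and 6 lower genes (1.12% and 0.0693%, limma with the pool as block), which shared 16 of the 17. DESeq2 on the sums called 1.52% of genes higher and 1.15% lower. The edgeR count rested on single pools: it was 20 without WT pool A, 0 without WT pool B, 0 without JAK2V617F pool A and 3 without JAK2V617F pool B, where limma called 60 to 93 higher genes. The sums weigh wells by depth, and the well means weigh each well alike and mix the share of wells with a message with its level. All 97 genes were higher in 4 of 4 pools by well means, 90 of them also by summed counts, and for 89 every positive pool mean lay above every negative one (2.7% of genes tested did so, and 1.79% had every positive pool mean below every negative one). The edgeR test on sums was the main setting, and limma on well means was an alternative to it. With so small a share of genes called, a short gene list may hold no call, so 0 calls is not by itself a result about a list. The shares called higher over all genes, 0.196% by edgeR and 1.12% by limma, stand beside each list count below. Values below are differences of mean log2(CPM + 1) from limma unless edgeR is named, with the pools in the order WT A, WT B, JAK2V617F A and JAK2V617F B.

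The immediate-early list held the most calls of the pathway lists. Nr4a1, by which the wells were chosen, is itself of this class, so the calls are not independent of that choice. Of its 40 members 32 could be tested, edgeR called 7 higher and limma 26 higher, and none was called lower by either. Over all genes tested edgeR called 0.196% higher and limma 1.12%. The median difference was 3.55, against -0.03 over all genes tested. Of the 32, 27 had pool means that did not overlap between states and were higher in positive wells, against 2.7% of all genes tested.

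Nr4a2, the closest relative of Nr4a1 and also an immediate-early nuclear receptor, had the largest difference of any gene tested. Its mean log2(CPM + 1) was 10.56, 10.09, 9.62 and 10.14 in positive wells and 0.14, 1.25, 1.34 and 1.602 in negative wells. It was near 0 in most negative wells and detected in 98.7% of positive and 32.8% of negative wells. The difference was 9.02 ± 0.49 (limma adjusted p = 1.81e-10), while edgeR on the sums, where 1 negative sum held 1 count, gave an adjusted p of 0.0605. The third family member, Nr4a3, was seen in 15 positive and 0 negative wells and was too rarely detected to be tested.

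AP-1 is a dimer of a Fos and a Jun protein, and both families were raised. Fos was 11.47, 11.59, 11.95 and 11.62 in positive wells and 6.72, 5.93, 4.19 and 5.55 in negative wells. Its message was thus present in most negative wells as well (detected in 98.7% of positive and 86.6% of negative wells), at a median of 16.6 CPM against 4980 CPM. The edgeR log2 fold change was 3.29 ± 0.39 (adjusted p = 0.022) and the well mean difference 6.06 ± 0.34 (limma adjusted p = 2.25e-10). Fosb was 9.04, 9.19, 9.74 and 8.44 in positive wells and 3.09, 2.31, 2.22 and 1.85 in negative wells, with an edgeR log2 fold change of 4.002 ± 0.36 (adjusted p = 0.00873). Unlike Fos it was missing from more than 50% of negative wells (detected in 93.6% of positive and 40.3% of negative wells).

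Among the partners, Jun was 9.77, 9.11, 9.64 and 7.83 in positive wells and 5.22, 6.23, 5.52 and 5.01 in negative wells, and its edgeR log2 fold change was 2.33 ± 0.24 (adjusted p = 0.0114). Junb, whose protein restrains Jun activity, was 9.74, 10.27, 9.797 and 8.61 in positive wells and 2.88, 4.15, 1.53 and 3.35 in negative wells, with an edgeR log2 fold change of 3.94 ± 0.44 (adjusted p = 0.0163). The pool means of both genes were separated between states in every pool. Jund and Fosl2 were called by limma, with differences of 3.101 ± 0.47 and 3.73 ± 0.49, and Maff with 1.95 ± 0.43. Atf3, a stress-induced partner of Jun, was found in 34.6% of positive and 6.72% of negative wells and was called by both tools (limma 2.45 ± 0.41, adjusted p = 0.00104).

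Zinc finger factors of the early response were also among the calls. Egr1, a mediator of MAP kinase signals, was 9.39, 10.45, 9.97 and 7.53 in positive wells and 6.600, 5.28, 2.505 and 4.04 in negative wells, a difference of 4.73 ± 0.54 (limma adjusted p = 9.47e-06, edgeR adjusted p = 0.309). Its lowest positive pool and its highest negative pool were separated by less than 1 log2 unit. Klf2, which holds lymphocytes and endothelium in a resting state, was called by both tools (edgeR log2 fold change 2.59 ± 0.27, adjusted p = 0.0114). Klf4, a factor linked to cell-cycle exit, was 6.16, 5.56, 7.46 and 6.903 in positive wells and 0.55, 0.34, 0.04 and 0.64 in negative wells, with a limma difference of 6.13 ± 0.54 (adjusted p = 2.27e-07) and an edgeR adjusted p of 0.167. Klf6 and Klf10 were called by limma, at 3.32 ± 0.47 and 3.33 ± 0.53.

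Other members of the early response, chosen for the set reported whatever their values or from the limma calls, encode decay factors and phosphatases. Zfp36, which binds AU-rich elements and brings messages to the deadenylase, was 10.28, 11.29, 10.88 and 8.802 in positive wells and 4.42, 5.41, 4.31 and 4.03 in negative wells, and both tools called it (edgeR log2 fold change 3.504 ± 0.28, adjusted p = 0.00527). Dusp1, the MAP kinase phosphatase, was 8.03, 9.04, 11.04 and 9.31 in positive wells and 4.21, 4.73, 3.23 and 4.67 in negative wells, a difference of 5.15 ± 0.51 (limma adjusted p = 1.05e-06, edgeR adjusted p = 0.138). Dusp2 and Dusp5 were also called by limma, at 3.22 ± 0.61 and 3.52 ± 0.49, as was Ppp1r15a at 3.83 ± 0.52, whose product reverses the stress block on translation. Ier2, an early-response gene with many counts in negative wells, differed by 3.26 ± 0.38 in well means (limma adjusted p = 1.21e-05) and by 1.14 ± 0.44 in edgeR (adjusted p = 1).

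Btg2 works through deadenylation, so the list of deadenylases, BTG/TOB proteins and AU-rich decay factors was described as a whole. All 20 members could be tested. Zfp36 was called by both tools and its relative Zfp36l2 by limma alone, with a small difference of 0.66 ± 0.16 (adjusted p = 0.0467), and the median of the list was 0.35. Btg1, the closest relative of Btg2, was 4.16, 3.26, 5.11 and 5.71 in positive wells and 3.66, 2.12, 3.83 and 3.49 in negative wells and was not called (limma 1.29 ± 0.53, adjusted p = 0.44). Tob1 was not called either (limma 0.61 ± 0.35, adjusted p = 0.669).

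**Figure D2:**
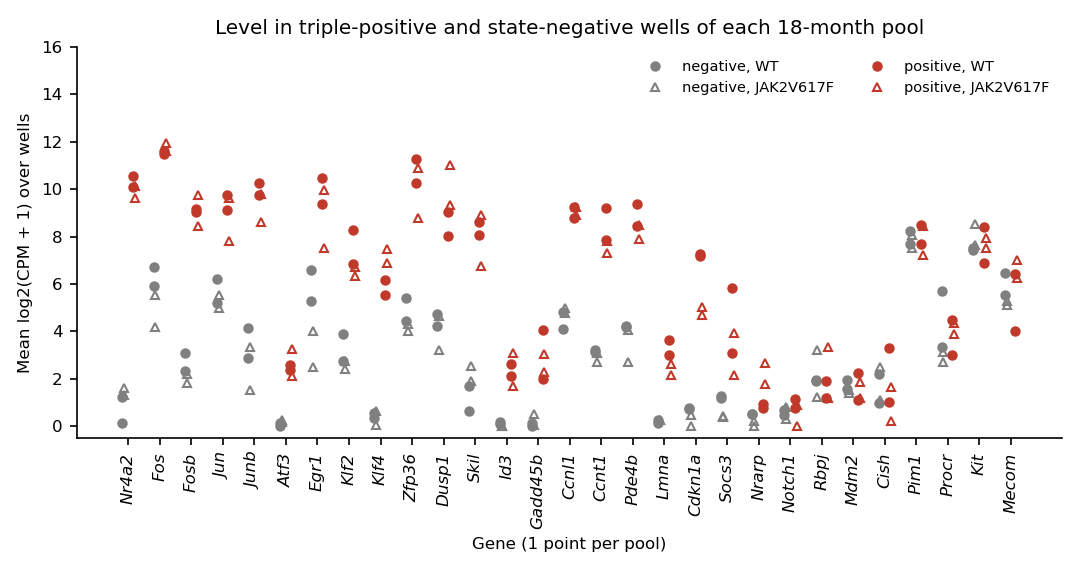
Each point is the mean log2(CPM + 1) over the positive (red) or negative (grey) wells of 1 of the 4 pools at 18 months, with filled circles for WT and open triangles for JAK2V617F. The positive points of Nr4a2 lie between 9.62 and 10.56 and the negative ones between 0.14 and 1.60, whereas the points of Notch1, Rbpj, Mdm2, Cish, Pim1, Procr, Kit and Mecom overlap.

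Outside the immediate-early list, the TGF-beta and BMP list held 4 called members of 17 tested, 2 of them by edgeR too. Over all genes tested limma called 1.12% higher and edgeR 0.196%. Skil, which encodes the SMAD repressor SnoN and is itself a TGF-beta target, was 8.63, 8.08, 6.77 and 8.897 in positive wells and 1.71, 0.66, 1.92 and 2.54 in negative wells, with an edgeR log2 fold change of 3.87 ± 0.29 (adjusted p = 0.00527). Id3, a BMP-induced inhibitor of bHLH factors, was absent from nearly all negative wells (detected in 32.1% of positive and 2.52% of negative wells), and the negative sums held 2, 2, 0 and 0 counts, against 383 to 1871 in the positive sums. The inhibitory SMAD Smad7 and the bHLH inhibitor Id1 were called by limma, at 4.36 ± 0.54 and 3.403 ± 0.51.

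Several of the called genes act in transcription elongation, splicing and signalling. Ccnt1, the cyclin of the elongation kinase P-TEFb, was 9.19, 7.84, 7.33 and 7.82 in positive wells and 3.15, 3.23, 2.72 and 3.097 in negative wells (edgeR log2 fold change 3.49 ± 0.28, adjusted p = 0.00527). Ccnl1 was 9.24, 8.79, 9.24 and 8.904 in positive wells and 4.097, 4.83, 4.98 and 4.798 in negative wells (edgeR 2.31 ± 0.24, adjusted p = 0.0114), and its positive pools spanned less than 0.5 log2 units. Pde4b, the phosphodiesterase that degrades cyclic AMP, was 9.39, 8.43, 7.91 and 8.49 in positive wells and 4.23, 4.18, 2.698 and 4.06 in negative wells (edgeR 2.46 ± 0.24, adjusted p = 0.0114). Gadd45b, a stress sensor upstream of p38 and JNK, and Lmna, the nuclear lamina gene, were called by both tools and were detected in 41.03% of positive and 6.72% of negative wells and in 37.2% of positive and 8.4% of negative wells. The remaining edgeR calls were the long noncoding RNA Gm26532 (5.51 ± 0.55), the histone genes Hist1h2bc (3.38 ± 0.31) and H3f3b (1.09 ± 0.13), with adjusted p of 0.0114, 0.0092 and 0.0243. Hist1h2bc was not called by limma, and was detected in 52.6% of positive and 44.5% of negative wells. In WT pool B it was detected in 34.8% of positive and 44.2% of negative wells. Gm26532 lies at chromosome 8 from 84208920 to 84209609 over the microRNA gene Mir24-2, and Jun, Junb, Ccnt1 and Atf3 also overlap other annotated genes, from which the counts may not separate them.

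Many of the genes differed in the share of wells that held them. With every well thinned to 100000 counts (2 positive wells and 1 negative well were shallower and left out), Nr4a2 was found in 98.7% of positive and 21.2% of negative wells, Fosb in 93.4% of positive and 32.2% of negative wells and Klf4 in 77.6% of positive and 6.78% of negative wells. Jund, Klf6 and Zfp36l2 were instead found in 100% of positive wells and in 73.7%, 79.7% and 99.2% of negative wells. Without thinning, 22 of the 97 genes were detected in 90% or more of the positive wells and 24 in under 50%, and the number detected per positive well was 45 to 84, with a median of 66.

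**Figure D3:**
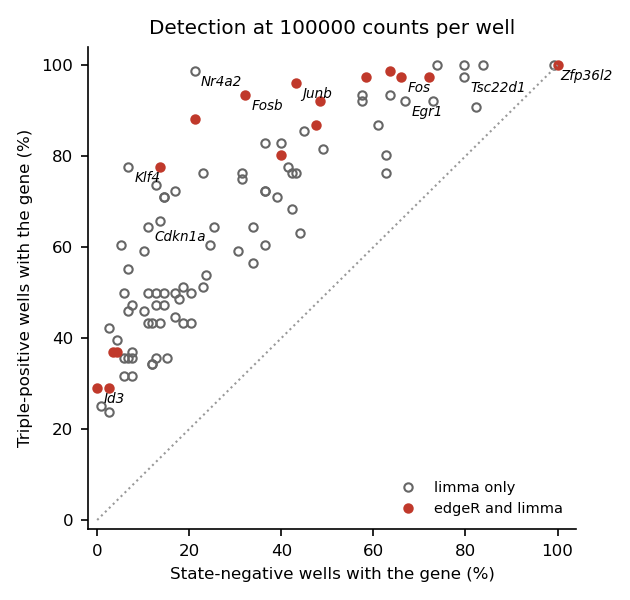
Each point is 1 of the 97 genes called higher by limma, placed by the percentage of negative (x) and positive (y) wells in which it was detected after thinning to 100000 counts, with filled points for the 16 genes also called by edgeR and a dotted line of equality. Nr4a2 lies at 21.2% and 98.7%, and Zfp36l2 at 99.2% and 100%.

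The p53 list, whose targets include Btg2 itself, was called for 2 of 16 tested members, with a median difference of -0.02. Both calls were by limma, which called 1.12% of all genes tested higher. Cdkn1a, the p21 inhibitor of cyclin-dependent kinases, was 7.17, 7.26, 4.701 and 5.03 in positive wells and 0.74, 0.78, 0.00 and 0.46 in negative wells, and was detected in 67.9% of positive and 17.6% of negative wells. Its difference was 5.55 ± 0.55 (limma adjusted p = 1.05e-06, edgeR adjusted p = 0.114). Ddit4, an inhibitor of mTORC1 that also responds to glucocorticoid and energy stress, differed by 2.54 ± 0.54 (limma adjusted p = 0.0143). Mdm2, the canonical feedback target of p53, was 2.26, 1.13, 1.88 and 1.19 in positive wells and 1.58, 1.94, 1.53 and 1.41 in negative wells, and its pools overlapped (limma 0.004 ± 0.44, adjusted p = 0.999). Trp53 was not called (limma -0.46 ± 0.59, adjusted p = 0.879).

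Cell-cycle inhibitors and progression genes were listed apart. Of 8 inhibitors tested, Cdkn1a and Cdkn2d were called by limma (1.98 ± 0.49, adjusted p = 0.0499), and Cdkn1c, the p57 inhibitor of quiescent HSCs, was not (0.04 ± 0.49, adjusted p = 0.993). Of 14 progression genes tested 0 were called, with a median of -0.12. Mki67, the proliferation marker, was detected in 0 of 78 positive wells and in 7 negative wells and was too rare to be tested.

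In the JAK/STAT list 2 of 26 tested members were called, both by limma and not by edgeR, and the median was 0.04. Limma called 1.12% of all genes tested higher. Socs3, the feedback inhibitor of STAT3 signals, was 3.08, 5.82, 3.95 and 2.14 in positive wells and 1.21, 1.28, 0.42 and 0.38 in negative wells (limma 2.93 ± 0.54, adjusted p = 0.00321). Mcl1, the antiapoptotic protein of HSC survival, was 7.92, 8.99, 7.54 and 8.45 in positive wells and 5.65, 5.301, 4.26 and 3.82 in negative wells (limma 3.47 ± 0.44, adjusted p = 3.64e-05). The STAT5 targets Cish and Pim1 were not called: Cish was 1.03, 3.32, 0.21 and 1.66 in positive wells and 2.18, 1.002, 1.12 and 2.48 in negative wells and Pim1 was 8.47, 7.67, 8.45 and 7.22 in positive wells and 8.25, 7.701, 8.07 and 7.51 in negative wells. Jak2 itself was not called (limma 0.02 ± 0.52, adjusted p = 0.998), and it was detected in 28 positive and 34 negative wells. Its gene count does not tell the mutant allele from the normal one and checks no label.

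The Notch list, which Hes1 would belong to, gave 0 calls among 16 tested members over the 4 pools, with a median of 0.08. Nrarp, a Notch target and feedback inhibitor, was 0.78, 0.93, 2.68 and 1.78 in positive wells and 0.51, 0.53, 0.00 and 0.22 in negative wells (limma 1.23 ± 0.38, adjusted p = 0.218). Its pool means thus did not overlap between states. Of the 16 members 1 was apart and higher and 1 apart and lower, beside 2.7% and 1.79% of all genes tested. In the JAK2V617F pools alone Nrarp was called by limma (2.12, adjusted p = 0.00731), and in the WT pools it was not (0.33, adjusted p = 0.927), while the interaction was not called (1.79 ± 0.69, limma adjusted p = 0.989). Notch1 and the DNA-binding partner Rbpj were not called (limma 0.14 ± 0.29 and -0.17 ± 0.46, adjusted p = 0.936 and 0.957). Hes5 was detected in 0 positive and 2 negative wells. Hey1 was detected in 17 positive wells and 1 negative well, with positive wells in every pool, but fell under the detection filter and has no test. Its pool means were 0.70, 1.01, 2.22 and 1.47 in positive wells and 0, 0.05, 0 and 0 in negative wells. It lies at chromosome 3 from 8663359 to 8667256.

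In the NF-kB and inflammation list 4 of 13 tested members were called by limma, at a list median of 0.79, beside 1.12% of all genes called higher. They were the IkB-like regulators Nfkbiz (2.92 ± 0.53) and Nfkbid (2.604 ± 0.59), the ubiquitin-editing brake Tnfaip3 (2.19 ± 0.43) and Ptgs2, the inducible prostaglandin synthase (2.98 ± 0.48). Of 12 heat-shock genes 1 was called, Dnajb1 (2.302 ± 0.54, limma adjusted p = 0.0311), and Hspa1b was not (-0.06 ± 0.28, limma adjusted p = 0.975). Hspa1a was detected in 5 positive and 8 negative wells. Of 13 interferon-response genes 0 were called, with a median of -0.19.

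Genes of stem cell identity gave no call, beside 1.12% of all genes tested called higher and 0.0693% lower by limma. Of 36 HSC genes tested 0 were called by either tool, the median was 0.09, and the differences ranged from -0.90 to 0.87. Mecom, needed for HSC maintenance, differed by 0.34 ± 0.52 (limma adjusted p = 0.906), Slamf1, the CD150 sort antigen, by 0.199 ± 0.47 (adjusted p = 0.947), and Procr by 0.22 ± 0.56 (adjusted p = 0.952). The known HSC ageing genes also gave 0 calls among 20 tested, with a median of 0.05. The gene list that the study took from its own cluster of old cells held 50 limma calls and 12 edgeR calls among 57 tested, and since it was chosen on these wells it is no independent evidence of direction.

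**Figure D4:**
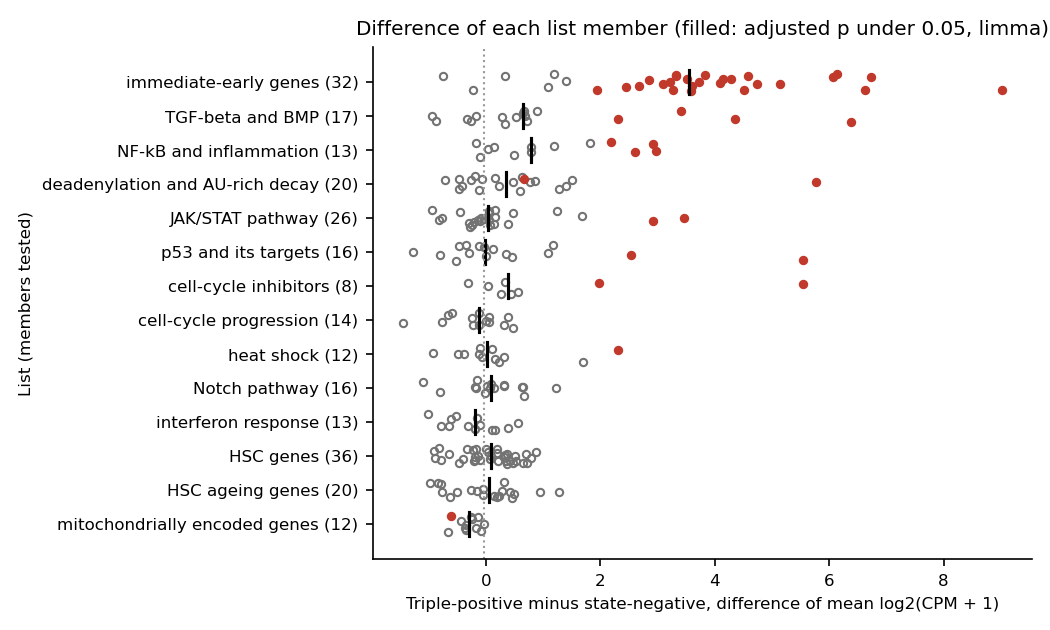
Each point is a tested list member, placed by the difference of mean log2(CPM + 1) between positive and negative wells; filled points passed limma's adjusted p of 0.05, black bars are list medians and the dotted line is the median of all 8661 genes (-0.03). The immediate-early list has a median of 3.55, and the HSC, HSC ageing, Notch, interferon and cell-cycle progression lists hold no filled point.

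By limma 6 genes were lower in positive wells, and edgeR called 0. Of the 6, 1 was still called without WT pool B, 1 without JAK2V617F pool A, 2 with log2(CPM + 10), 1 in WT pools alone and 1 in JAK2V617F pools alone. Paqr7, a membrane progestin receptor gene, was found in 10.3% of positive and 40.3% of negative wells (-2.44 ± 0.48, limma adjusted p = 0.00629), and Emp3, a membrane protein gene, in 60.3% of positive and 79.8% of negative wells (-1.96 ± 0.48, adjusted p = 0.047). The mitochondrially encoded mt-Nd1, a complex I subunit, was 10.91, 10.52, 10.44 and 11.203 in positive wells and 11.45, 11.44, 11.08 and 11.55 in negative wells (-0.61 ± 0.13, adjusted p = 0.0112), and all 12 mitochondrially encoded genes tested had a difference below 0, at a median of -0.30. The other 3 are short noncoding genes. Gm24270, annotated as a microRNA gene at chromosome 9 from 56223715 to 56223771 inside Peak1, was 1.43, 2.06, 0.95 and 2.22 in positive wells and 3.95, 3.86, 4.19 and 3.94 in negative wells. Gm24187, also annotated as a microRNA gene, at chromosome 13 from 9834469 to 9834525, was 0.46, 0.59, 0.34 and 1.17 in positive wells and 2.74, 2.62, 3.19 and 2.27 in negative wells. Both were separated between states in every pool, and Gm24270 was detected in 55.1% of positive and 97.5% of negative wells. The snRNA gene Gm22513 was found in 2.56% of positive and 39.5% of negative wells. These 5 genes outside the lists were named after their values were seen.

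The mutation addressed by the design is an activating change in JAK2, so the difference between states was compared between genotypes. For the 97 genes, the JAK2V617F minus WT difference of their differences had a median of 0.06 (range -2.42 to 3.14), above 0 for 52 of 97, against a median of 0.02 over all genes. The interaction term gave 0 calls of 8661 in edgeR (0% of genes, 224 at an unadjusted p under 0.05), 1 in limma (0.0115%) and 82 in DESeq2. The limma call was Tsc22d1, a leucine zipper gene induced by TGF-beta. It was 10.96, 9.33, 10.93 and 10.71 in positive wells and 10.14, 7.94, 6.85 and 6.296 in negative wells. Its negative wells were lower in JAK2V617F pools than in WT pools while the positive wells were not, and the difference between states was 1.11 in WT and 4.24 in JAK2V617F pools (interaction 3.14 ± 0.48, limma adjusted p = 0.00493). Cdkn1a had a lower mean in JAK2V617F than in WT positive wells, with 7.17 and 7.26 against 4.70 and 5.03, but the interaction of -1.82 ± 1.07 was not called (limma adjusted p = 0.989).

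The 97 genes were chosen on the positive and negative wells at 18 months, so their level there is a description. The 45 wells with 1 or 2 of the defining genes and the wells of the other ages played no part in choosing the 97. The 3 defining genes, however, were chosen from 18-month cells of this series. Of the 97 genes, 50 are in the study's own cluster list. The values by number of defining genes are therefore a description too. The mean log2(CPM + 1) over the 97 genes, with SD over wells, was 2.31 ± 0.53 in wells with 0 of the 3 genes, 3.10 ± 0.77 (n = 31 wells) with 1, 4.11 ± 0.96 (n = 14 wells) with 2, and 5.58 ± 0.96 (n = 78 wells) with 3. The same order held within each pool, and 15 of the 45 intermediate wells reached the lowest positive well (3.71). At 4 months the means were 1.99 ± 0.45, 2.57 ± 0.78 (n = 40 wells), 3.17 ± 0.76 (n = 15 wells) and 4.17 ± 0.48 (n = 2 wells), and 9 wells, the 2 positive ones among them, reached the lowest positive well of 18 months. At 12 months they were 1.78 ± 0.61 (n = 275 wells) with 0 genes and 2.31 ± 0.54 (n = 6 wells) with 1, and no well reached it.

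**Figure D5:**
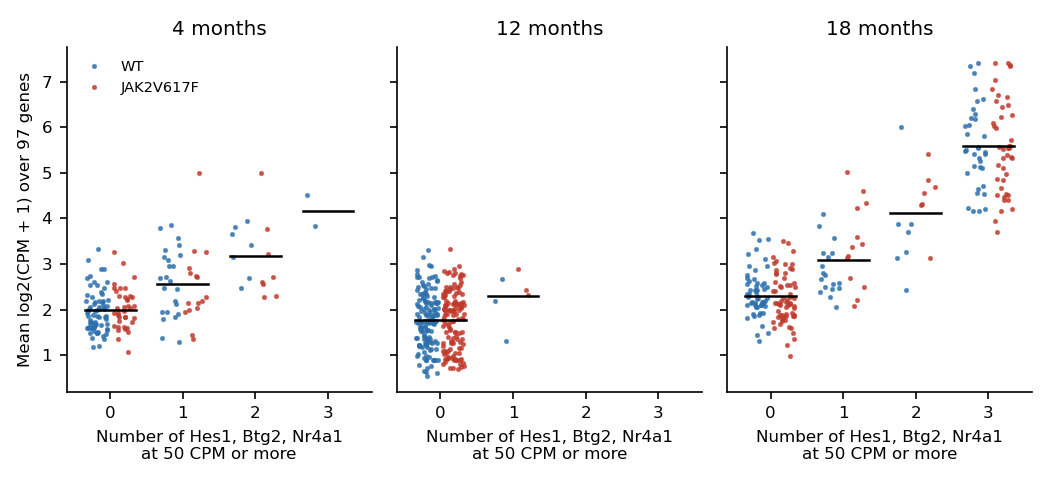
Each dot is a passing well, placed by the number of defining genes at 50 CPM or more (x) and the mean log2(CPM + 1) of the 97 limma-called genes (y), with blue for WT, red for JAK2V617F and black bars for means. At 18 months the means step from 2.31 to 5.58, and at 4 months from 1.99 to 4.17 with 2 wells in the last class.

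Single genes did not all follow that order in young wells. At 18 months Fosb had means of 2.21, 3.86, 7.15 and 9.10 in wells with 0, 1, 2 and 3 of the genes, and was detected in 40.3%, 61.3%, 85.7% and 93.6% of them. At 4 months it was detected in 1.85%, 12.5% and 0% of wells with 0, 1 and 2 of the genes. Nr4a2 at 4 months instead had means of 1.30, 4.55 and 6.39, beside 18-month means of 1.28, 3.42 and 5.79 in the same classes. Fos had means of 1.84, 3.596 and 4.57 at 4 months and 5.54, 7.85 and 11.41 at 18 months. Fos and Fosb were at 0 counts in each of the 281 wells at 12 months. Cdkn1a had its widest step between 2 and 3 genes, with 18-month means of 0.51, 1.21, 2.32 and 5.93. The ages differ in library pools as well, and these age differences were not tested.

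Wells with a single defining gene were compared by which gene it was. At 18 months wells with Hes1 alone had a mean of 3.19 ± 1.10 (SD, n = 7 wells), with Btg2 alone 2.99 ± 0.64 (n = 11 wells) and with Nr4a1 alone 3.15 ± 0.72 (n = 13 wells), so the differences lay within 1 SD. At 4 months Nr4a1 alone had the highest mean of the single-gene classes, 2.76 ± 0.77 (n = 28 wells), against 2.25 ± 0.61 (n = 8 wells) for Btg2 and 1.91 ± 0.75 (n = 4 wells) for Hes1.

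The positive wells also varied among themselves. Their mean over the 97 genes ranged from 3.71 to 7.41, and over the 78 wells it had Pearson's r of 0.36 with Hes1, 0.22 with Btg2 and 0.36 with Nr4a1 (log2(CPM + 1)), 0.03 with log10 gene counts, 0.32 with the number of genes detected in the well and -0.26 with the share of reads in no annotated gene. These are descriptions over wells that share pools and libraries, and the range of r over pools was 0.20 to 0.50 for Hes1, 0.01 to 0.45 for Btg2, 0.00 to 0.67 for Nr4a1 and -0.04 to 0.94 for the number of genes detected. The 53 positive wells with Cdkn1a had a mean of 5.82 ± 0.95 (SD) and the 25 without it 5.06 ± 0.79, and Cdkn1a is 1 of the 97. Cdkn1a was detected in 75% and 78.3% of positive wells of the WT pools and in 57.1% and 63.6% of those of the JAK2V617F pools, against 0% to 23.3% of negative wells.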

How the data were processed

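Single LT-HSCs were profiled by Smart-seq2 in 1152 wells. The deposited files hold counts of reads per gene, which the authors made with TopHat2 2.0.13, Bowtie2 2.2.3 and HTSeq per the submitters' processing notes, on mouse build GRCm38. Whether strand was used in counting is not given in the sources used here. No value was normalized before deposit.

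Wells with 2500 or more genes detected were kept. CPM were computed over gene counts without ERCC spike-ins and the 5 rows of unassigned reads. Wells with Hes1, Btg2 and Nr4a1 each at 50 CPM were positive and wells with none at 50 CPM negative (119 wells). Counts were summed per pool and state (8 sums), the 3 genes removed, and genes kept by edgeR's filterByExpr and by detection in 10% or more of the wells compared. The sums were tested with edgeR 4.0.16 (quasi-likelihood, TMM, pool as block) and, as an alternative, DESeq2 1.42.0, at a Benjamini-Hochberg adjusted p under 0.05. Mean log2(CPM + 1) per pool and state was tested with limma 3.58.1 (trend, pool as block). The block pairs the positive and negative wells of 1 pool, which share a library pool. R 4.3.3 and Python 3.11.15 were used, and each testing script was tested on simulated data, and a gene that was not called is not shown to be unchanged. Gene counts per well at 18 months ranged from 31497 to 6618753, and intervals and limits from counts of 0 cover counting error only.

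Genes were named where edgeR called them (up to 15 in each direction by fold), where they were edgeR-called list members, or where they belonged to a set of genes reported whatever their values. List members called by limma alone and the noncoding and membrane genes were named after their values were seen. The members and lists were chosen with earlier results of these data known. Promoters came from a RefSeq table (GRCm38.p6), and gene positions from GENCODE M21. Some marker genes are not reported here.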

Additional observations from a re-analysis of the deposited data

Results flagged for a closer look

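In 3 of 81 named genes 1 pool stood apart from the other 3 in the difference between positive and negative wells, by a test that chance passes in about 1 of 20 groups. Ccnt1 had a difference of 6.05 on the log2(CPM + 1) scale in WT pool A and 4.61 to 4.72 in the others. Trp53 had -3.06 in WT pool A and 0.14 to 0.63 in the others. Cish had 2.32 in WT pool B and -1.16 to -0.82 in the others.

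Tsc22d1 differed between genotypes, with a JAK2V617F minus WT difference of 3.14 by limma's interaction term (adjusted p = 0.00493), and edgeR's interaction term called 0 genes.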

How the results depend on the processing

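Counts of calls are given as a percent of the genes tested under each setting. On sums, 0.196% were called higher by edgeR (17 genes) and 1.52% by DESeq2. On well means limma called 1.12% higher (97 genes). For edgeR on sums the share was 0.358% with no replicate block (31) and 0.431% with 1300 genes as the detection limit (35). It was 0.491% with wells thinned to 100000 counts (38), 0% in WT pools alone and 0.0226% in JAK2V617F pools alone (2). Leaving out 1 pool gave 0% to 0.231%. Called lower were 0% by edgeR, 1.15% by DESeq2, 0.0693% by limma (6) and 0.0123% with 1300 genes (1), and 0% without each pool. On well means the share called higher was 0.672% in WT pools alone (57), 1.84% with 1300 genes, 0.701% to 1.07% without 1 pool and 1.05% with no replicate block (91). The share called lower on well means was 0.0231% with log2(CPM + 10), 0.197% with 1300 genes and 0.0117% to 0.115% without 1 pool. The interaction gave 0% by edgeR, 0.947% by DESeq2 (82) and 0.0115% by limma (1). The causes were not tested.

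No called gene reversed its direction under these settings. Genes named but not called did between genotypes: on well means the WT and JAK2V617F differences were -1.46 and 0.53 for Trp53, -0.77 and 1.45 for Mecom, -0.77 and 1.21 for Procr and 0.62 and -0.58 for Jak2. Of the values of called genes, 235 on the edgeR scale and 1090 on well means kept their side of the threshold, and the rest lost the call. All alternatives on well means were chosen after seeing the data. Positive against negative wells at 4 and 12 months could not be fitted, with 2 and 0 positive wells.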

Other observations

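Of the 97 genes called by limma, 37 were in none of the gene lists, and those given here were named after their values were seen. Crem, a CRE-binding factor with a cyclic AMP-inducible repressor form, differed by 2.10 ± 0.45 (limma adjusted p = 0.0160), Rgs2, which dampens G-protein signals, by 3.57 ± 0.59 (adjusted p = 0.00102), and Atf4 and Ddit3, factors of the integrated stress response, by 3.25 ± 0.56 (adjusted p = 0.00165) and 2.29 ± 0.50 (adjusted p = 0.0186). Spry2, a brake on receptor tyrosine kinase signals, differed by 2.67 ± 0.56 (adjusted p = 0.0128).

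The nuclear noncoding RNA Neat1, the scaffold of paraspeckles, differed by 3.67 ± 0.33 (limma adjusted p = 2.91e-07), and its edgeR adjusted p was 0.0524. Clk1, a splicing kinase, differed by 1.95 ± 0.42 (limma adjusted p = 0.0145), and Slc38a2, an amino acid transporter, by 3.92 ± 0.50 (limma adjusted p = 3.68e-05). The motif TGCGTCA, chosen after reading the Nr4a1 sequence, was found upstream of 9 of the 72 genes with a promoter (12.5%), against 3.91% of tested genes and 2.00% of all genes in the promoter table.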
